A study of Mus musculus with 15 samples.

Results

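The epithelial pixels of 5 sections of mouse embryos at embryonic day 11 (E11) and 12 (E12) were described from spatial transcript counts. In this assay a frozen section receives a set of barcodes through parallel channels and then a second set through channels at right angles, and the crossing points are the pixels. A pixel is a small region of the section and can hold several cells, or parts of them. The tissue was labelled as embryo, with pixels 25 µm wide (E11, 2 libraries), 10 µm wide (E11, 2 libraries) and 50 µm wide (E12, 1 library). No genotype, strain, sex or treatment was given for any of them, and neither the embryo of origin nor the region cut is stated for a section. P-values therefore measure only the spread between these sections, which may be technical, and stage, pixel width and region cannot be told apart. Members were chosen by measured counts: a pixel was called epithelial when it lay on tissue, held at least 2 counts over Epcam, Cdh1, Krt8, Krt18 and Cldn6, and was in the top 10% of its library by these counts per 10000. The rule chose 524 of the 8309 tissue pixels in these 5 libraries, and the whole series had 17046 tissue pixels in 11 transcript libraries. The libraries held 142 and 105 epithelial pixels (E11 25 µm, replicates 1 and 2), 119 and 71 (E11 10 µm, replicates 1 and 2) and 87 (E12). Lists of 5 values below follow this order of libraries.

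Epithelia are sheets of cells that line surfaces and tubes, held together by adherens junctions, tight junctions and desmosomes and resting on a basement membrane. Epcam and Cdh1 (E-cadherin) are adhesion proteins at the surface of these cells, Cldn6 is a tight junction claudin of embryonic epithelia, and Krt8 and Krt18 pair to form the intermediate filament of simple epithelia. In the mid-gestation embryo such cells form the surface ectoderm, the gut and its buds, the nephric ducts and the mesothelium. Krt8 and Krt18 are also made outside classical epithelia, among them in the notochord, the axial rod that secretes Shh (sonic hedgehog) and is marked by the transcription factor T (brachyury), and in early heart muscle.

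The promoters of 4 genes of this class are shown because each holds the E-box letters CAGGTG or their reverse complement CACCTG, the sequence bound by the Snai and Zeb repressors of epithelial genes, here in capitals. The sequences are the 250 bases before the gene start in the RefSeq table (GRCm38.p6), 5′ to 3′ on the gene's own strand.
Epcam, chr17:87635729-87635978, forward strand: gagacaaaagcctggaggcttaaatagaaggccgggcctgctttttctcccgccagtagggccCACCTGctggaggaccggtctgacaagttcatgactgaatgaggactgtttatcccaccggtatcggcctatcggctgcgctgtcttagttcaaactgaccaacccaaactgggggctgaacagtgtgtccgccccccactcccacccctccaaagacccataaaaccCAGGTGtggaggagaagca
Cldn6, chr17:23679115-23679364, forward strand: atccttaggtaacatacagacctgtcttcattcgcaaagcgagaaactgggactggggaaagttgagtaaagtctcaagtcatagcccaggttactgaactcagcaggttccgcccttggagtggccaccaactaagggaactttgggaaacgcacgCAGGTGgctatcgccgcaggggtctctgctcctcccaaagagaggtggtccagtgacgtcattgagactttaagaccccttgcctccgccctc
Cldn7, chr11:69965171-69965420, forward strand: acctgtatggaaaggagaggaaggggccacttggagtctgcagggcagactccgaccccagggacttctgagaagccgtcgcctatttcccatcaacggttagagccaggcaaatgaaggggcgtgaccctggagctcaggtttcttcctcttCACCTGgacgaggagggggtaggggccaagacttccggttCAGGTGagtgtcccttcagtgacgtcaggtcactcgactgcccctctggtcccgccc
Spint2, chr7:29281978-29282227, reverse strand: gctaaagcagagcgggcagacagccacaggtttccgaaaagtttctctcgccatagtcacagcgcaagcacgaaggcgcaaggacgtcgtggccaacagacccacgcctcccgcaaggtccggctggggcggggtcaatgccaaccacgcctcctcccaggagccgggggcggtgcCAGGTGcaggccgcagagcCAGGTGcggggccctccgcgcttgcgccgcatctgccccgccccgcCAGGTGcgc
Epcam and Cldn6 belong to the rule. Cldn7, a claudin, and Spint2, an inhibitor of membrane serine proteases, were among the genes that were higher in epithelial pixels. Shares were counted per gene, with a match on either strand in any promoter listed for the gene. These letters were present for 23 of the 55 genes found among those that were higher (41.8%). They were present for 19 of 71 that were lower (26.8%) and for 1336 of 7813 of all genes tested (17.1%). All 4 rule genes found in the table held them. Over all 27025 genes of the RefSeq table the share was 19.4%. The match is to letters only.

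The 5 genes of the rule were used to choose the pixels, so their levels are a description. Epcam stood at 67.5, 76.8, 532, 12.7 and 186 counts per 1000000 counts (CPM) in the summed epithelial pixels and at 5.13, 3.90, 15.6, 1.93 and 7.66 CPM in the other tissue pixels. Krt18 stood at 665, 325, 621, 649.8 and 156 CPM in epithelial pixels, against 15.6 to 37.4 CPM in the others. Krt18 thus stood above Epcam in 4 of 5 libraries and below it at E12. The share of epithelial pixels with at least 1 count of Epcam, Cdh1 or Cldn6 was 20.4%, 32.4%, 68.1%, 5.63% and 73.6%, against 2.11%, 4.07%, 6.33%, 0.592% and 6.91% of the other tissue pixels. Members just inside the top 10% had 7.73, 3.47, 10.1, 4.18 and 3.64 rule counts per 10000, and the nearest pixels below it had 7.72, 3.44, 10.0, 4.17 and 3.61.

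1 library went against the label in part. In E11 10 µm replicate 2, 67 of the 71 chosen pixels held Krt8 or Krt18 counts only, and the epithelial genes Cldn7, Grhl2, Esrp1, Spint1, Spint2, Ap1m2, Perp, Sfn and Trp63 had no count in them. Grhl2 and Trp63 had no count in the other tissue pixels there either. St14, Prss8, Cdh3, Lsr, Fermt1, Krt7, Wnt6 and Wfdc2 were higher in the chosen pixels, as in 5 of 5 libraries, some of them, such as St14 and Wnt6, under the level of 3 counts. The chosen pixels held 156972 counts in all, so 3 counts would be 19.1 CPM there. They are called epithelial below by the rule alone, and the counts over all genes, and those of lists whose number of called genes changed, are also given without this library. The chosen pixels were about as deep as the other tissue pixels at E11 25 µm (medians of 2505.5 against 2537 and 4416 against 4342 counts per pixel) and deeper in the other 3 libraries (1570 against 1225, 2041 against 1113 and 4736 against 3462.5). The part of depth in the results was not tested, other than by thinning, given below.

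**Figure D1:**
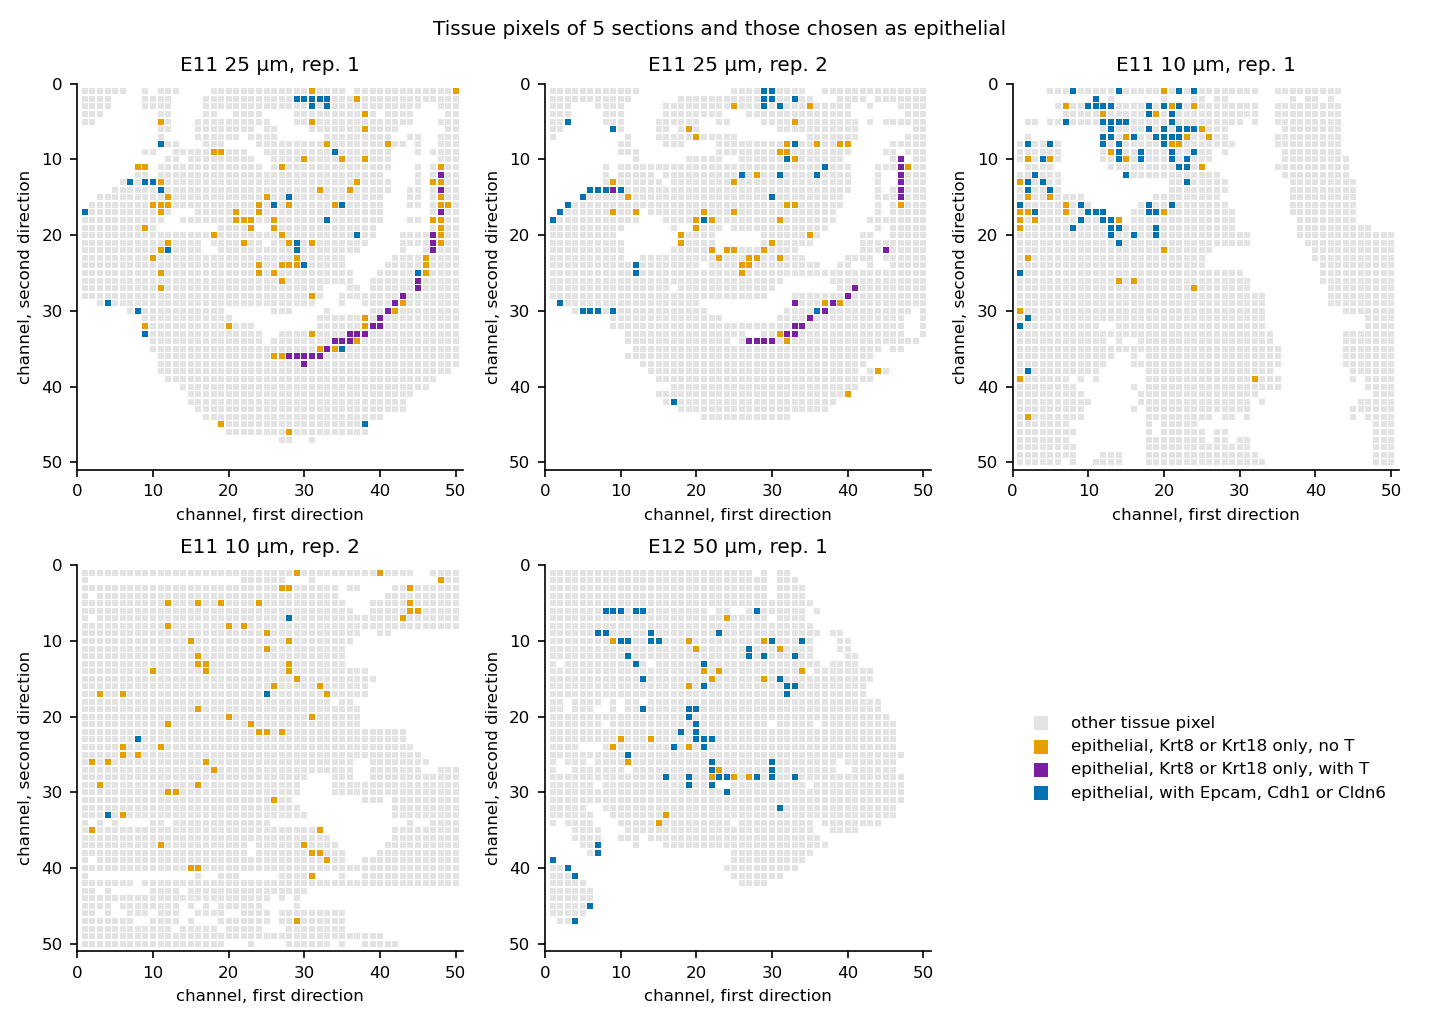
Tissue pixels of the 5 sections on the grid of channels (axes, channel number in each flow direction), with other tissue pixels in grey and epithelial pixels coloured by the genes they held. The epithelial pixels with T form an arc along 1 side of both E11 25 µm sections, pixels with Epcam, Cdh1 or Cldn6 (blue) form short lines and patches in 4 sections, and the 71 pixels of E11 10 µm replicate 2 lie scattered.

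Epithelial pixels lay beside each other more often than other tissue pixels lay beside them, as the grid maps show. Among the 4 nearest tissue neighbours of an epithelial pixel, 31.9%, 26.6%, 31.6%, 8.89% and 20.8% were epithelial. Around other tissue pixels the shares were 6.41%, 5.38%, 5.45%, 3.63% and 4.78%. The difference was 18.8 ± 8.60 percentage points (SD, n = 5) and was positive in 5 of 5 libraries, with p = 0.0625 in a two-sided exact sign-flip permutation test, the smallest p that 5 libraries can give. The largest touching groups held 24, 8, 15, 4 and 8 pixels. E11 10 µm replicate 2 had the smallest difference, 5.26 points, and no group of 5 or more. The 2 E11 25 µm sections had 16 epithelial grid positions in common, which is 13.0% of those of replicate 1 and 17.0% of those of replicate 2, where 8.87% and 6.78% of the shared tissue positions were epithelial. All libraries use the same set of barcodes, so a shared position is not a shared pixel.

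A check of the rule within itself left out each of its 5 genes in turn and chose the pixels by the other 4. The gene left out was then higher in the chosen pixels in each of the 5 fits. Epcam stood at 29.8, 49.0, 187, 0 and 110.8 CPM in pixels chosen without it and at 8.30, 5.72, 46.0, 2.72 and 14.7 CPM elsewhere, a log2 fold change of 2.42 ± 0.28 (standard error, SE; adjusted p = 7.63e-07, edgeR quasi-likelihood test). The log2 fold changes were 2.10 ± 0.35 for Cdh1 (adjusted p = 0.000356, edgeR), 2.33 ± 0.28 for Krt8 (0.00179), 2.23 ± 0.23 for Krt18 (2.82e-07) and 2.45 ± 0.35 for Cldn6 (8.90e-05). Krt8 was higher in 5 of 5 libraries and the other genes in 4 of 5. The exception was each time E11 10 µm replicate 2, where Epcam, Cdh1 and Cldn6 had no count in the pixels chosen without them and Krt18 stood at 51.4 against 66.7 CPM.

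The genes that the rule did not use were compared between epithelial and other tissue pixels, summed per library and fitted with the library as a block. Of 11033 genes tested, 78 were higher in epithelial pixels (0.707%) and 97 were lower (0.879%) at an adjusted p of at most 0.05 (edgeR), while 895 had an unadjusted p under 0.05. Without E11 10 µm replicate 2 the counts were 100 higher and 105 lower. Each pixel mixes cells, so fewer cells of a type and less RNA per cell cannot be told apart. Over all genes tested the median log2 fold change was -0.0082. After every pixel was thinned to 1000 counts, 24 genes were higher and 30 lower among 7845 tested. With no library block in the fit 1 gene, Fermt1, was higher and none lower, with 241 at an unadjusted p under 0.05.

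**Figure D2:**
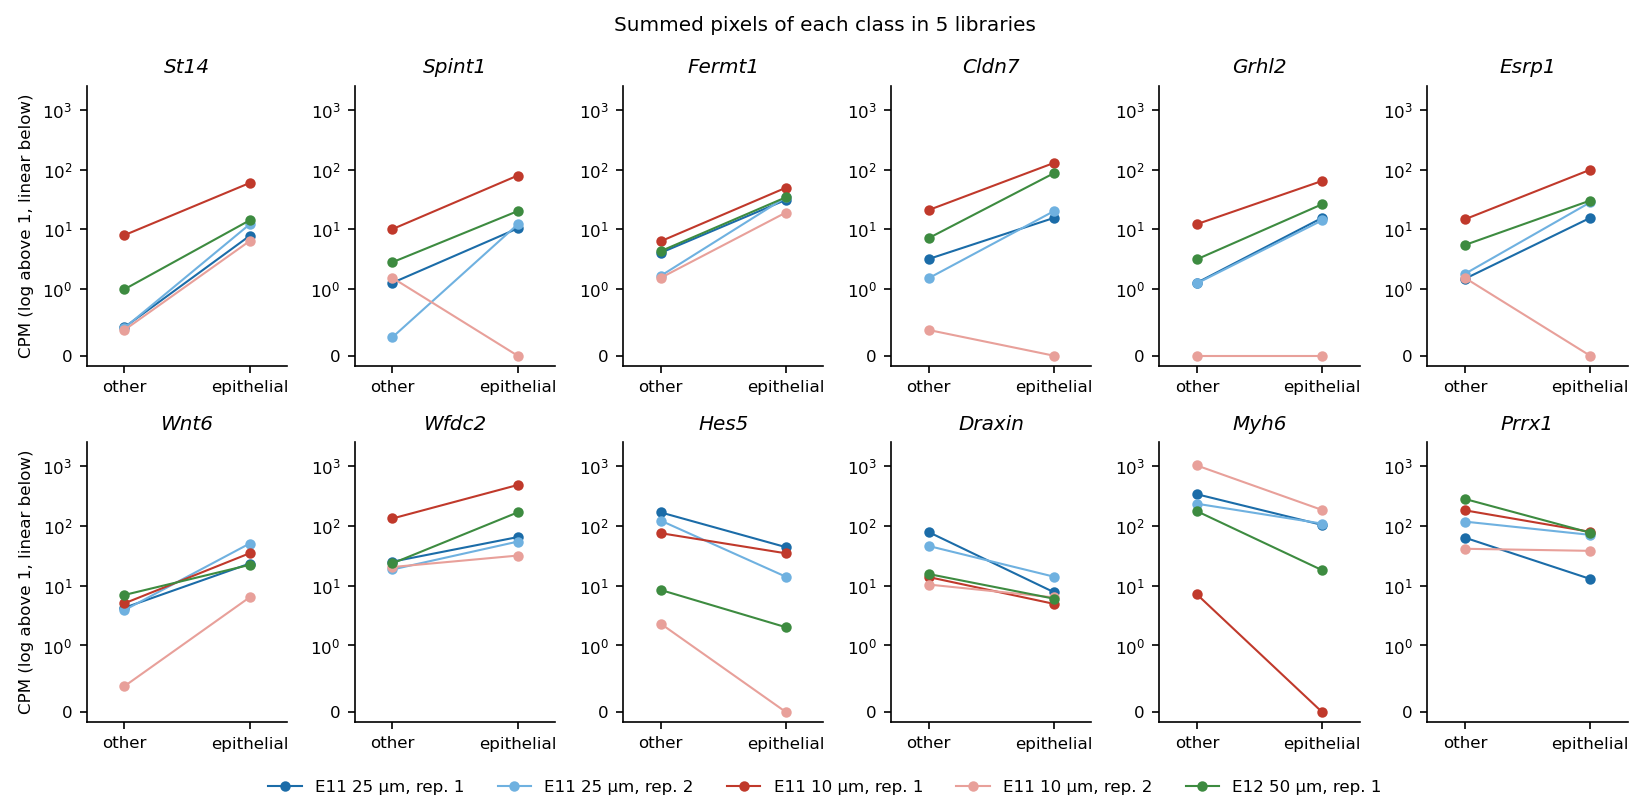
CPM (vertical axis, logarithmic above 1 and linear below) of 12 genes in the summed other and epithelial tissue pixels, joined by a line for each of the 5 libraries. St14, Fermt1, Wnt6 and Wfdc2 were higher in epithelial pixels in 5 of 5 libraries, and Hes5, Draxin, Myh6 and Prrx1 were lower in 5 of 5. In E11 10 µm replicate 2, St14 and Wnt6 in epithelial pixels lay under the level of 3 counts there (19.1 CPM). Hes5 and Draxin lay under it in both classes, as did Draxin and Myh6 in replicate 1 (14.9 CPM).

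The membrane serine proteases and their inhibitors, which act in a cascade at the surface of epithelial cells, were higher in all 4 tested genes of the list of 5 (median log2 fold change 2.64). St14 (matriptase) had 7.79, 12.1, 59.6, 6.37 and 14.2 CPM in epithelial pixels, against 0.427, 0.418, 8.02, 0.387 and 0.999 CPM elsewhere. It was higher in every library, by a log2 fold change of 3.58 ± 0.50 (SE; adjusted p = 3.38e-05, edgeR), though it rests on 29 counts in epithelial pixels. In E11 10 µm replicate 2 the 6.37 CPM of St14 was under the 19.1 CPM that 3 counts would be. Its partner protease Prss8 (prostasin) was also higher in 5 of 5 libraries (2.24 ± 0.41, adjusted p = 0.00101, edgeR). The inhibitor Spint1 had 10.4, 12.1, 79.5, 0 and 20.2 CPM against 1.28, 0.278, 10.1, 1.55 and 2.83 CPM. Spint1 (3.05 ± 0.47) and Spint2 (1.76 ± 0.39) were higher in 4 of 5 libraries, with no count in the epithelial pixels of E11 10 µm replicate 2. Spint2 no longer passed when any 1 of E12 and both E11 25 µm libraries was left out. The other 3 passed under every alternative that could test them, other than the fit with no library block.

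Of the junction and polarity list, 12 of 24 genes could be tested and 7 were higher, with none lower and a median of 1.27. The claudin Cldn7 had 15.6, 20.2, 129, 0 and 87.0 CPM in epithelial pixels and 3.20, 1.53, 21.1, 0.387 and 7.16 CPM elsewhere, a log2 fold change of 3.04 ± 0.35 (adjusted p = 8.56e-07, edgeR). Cldn7 was highest in E11 10 µm replicate 1 and E12 and absent from the counts of E11 10 µm replicate 2. P-cadherin (Cdh3) and Lsr, a protein of tricellular tight junctions, were higher in 5 of 5 libraries (1.57 ± 0.30 and 1.37 ± 0.26). The desmosomal cadherin Dsg2 was higher in 4 of 5, with 44.6 CPM in epithelial against 49.9 CPM in other pixels of E11 10 µm replicate 2. F11r, Perp and Ap1m2, the epithelial subunit of a clathrin adaptor, were also higher. Desmoplakin (Dsp) had a log2 fold change of 1.12 ± 0.27, positive in 5 of 5 libraries, and did not pass (adjusted p = 0.0688, edgeR). After thinning, Cdh3, Dsg2 and F11r no longer passed. F11r and Perp no longer passed without E11 25 µm replicate 1 or replicate 2, Lsr without E11 25 µm replicate 2, in the top 5% of pixels or with pixels chosen by Epcam, Cdh1 and Cldn6 only, and F11r with DESeq2. Without E11 10 µm replicate 2, 8 of 13 tested junction genes were higher.

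Both testable genes of the 13 transcription and splicing factors were higher. Grhl2, a transcription factor of epithelial junction genes, had 15.6, 14.1, 64.6, 0 and 26.3 CPM in epithelial pixels against 1.28, 1.25, 12.2, 0 and 3.16 CPM (2.96 ± 0.42, adjusted p = 5.22e-05, edgeR). Esrp1, which sets epithelial splicing, had 15.6, 28.3, 99.4, 0 and 30.4 CPM against 1.50, 1.81, 14.8, 1.55 and 5.49 CPM (2.90 ± 0.39, adjusted p = 1.38e-05, edgeR). Both were higher in epithelial pixels in 4 of 5 libraries, and E11 10 µm replicate 1 had the highest level in both classes. Of 7 tested genes on the opposite programme of epithelial-mesenchymal transition, none passed (edgeR), with 3 at an unadjusted p under 0.05 and 1, Vim, called by DESeq2. 6 of the 7 had a negative log2 fold change, among them Vim (-0.78 ± 0.30), Zeb1 (-0.48 ± 0.18) and Zeb2 (-0.38 ± 0.17), with adjusted p of 0.644, 0.305 and 0.533 (edgeR).

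Other genes that were higher in 5 of 5 libraries have known roles in epithelial cells. Fermt1 (kindlin-1), an integrin activator of epithelial cells, had 31.2, 34.3, 49.7, 19.1 and 34.4 CPM against 4.06, 1.67, 6.33, 1.55 and 4.33 CPM, a log2 fold change of 3.29 ± 0.36 (adjusted p = 4.44e-07, edgeR). Its levels ran from 19.1 to 49.7 CPM in the 5 sums of epithelial pixels, and the 19.1 CPM of E11 10 µm replicate 2 is 3 counts. The adaptor Grb7 (1.72 ± 0.42), the chloride channel Ano1 (1.64 ± 0.32), the secreted chaperone Clu (1.59 ± 0.26), Card10 (1.76 ± 0.41) and the small membrane protein Smim22 (2.10 ± 0.49) were also higher in 5 of 5. Fermt1 passed under every alternative that could test it, while Grb7, Ano1, Card10 and Smim22 each no longer passed without either of 2 libraries. Card10 and Clu no longer passed with pixels chosen by Epcam, Cdh1 and Cldn6 only. Grb7 also did not pass in the top 5% of pixels or with at least 3 marker counts. Of the basement membrane and hemidesmosome list, 3 of 8 tested genes were higher: the laminin chain Lama5 (1.48 ± 0.29), the laminin receptor chain Itga3 (1.64 ± 0.37) and the matrix protein Frem2 (1.53 ± 0.22). Each was higher in 4 of 5 libraries and lower in E11 10 µm replicate 2, and 4 of 8 were higher without that library. Itga3 no longer passed without any 1 of the other E11 libraries, in the top 5% of pixels or with pixels chosen by Epcam, Cdh1 and Cldn6 only. Lama5 no longer passed after thinning (log2 fold change 1.15) or without E11 25 µm replicate 2. Col4a1, Col4a2 and Nid1, which other cells of the embryo also make, had log2 fold changes of -0.07, 0.03 and 0.12 and did not pass. Of the fibroblast growth factor receptors and partners, only the target Etv5 passed among 6 tested (1.12 ± 0.23, 5 of 5 libraries). After thinning, Etv5 had a log2 fold change of -0.076, and it no longer passed without E11 25 µm replicate 1 or replicate 2.

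**Figure D3:**
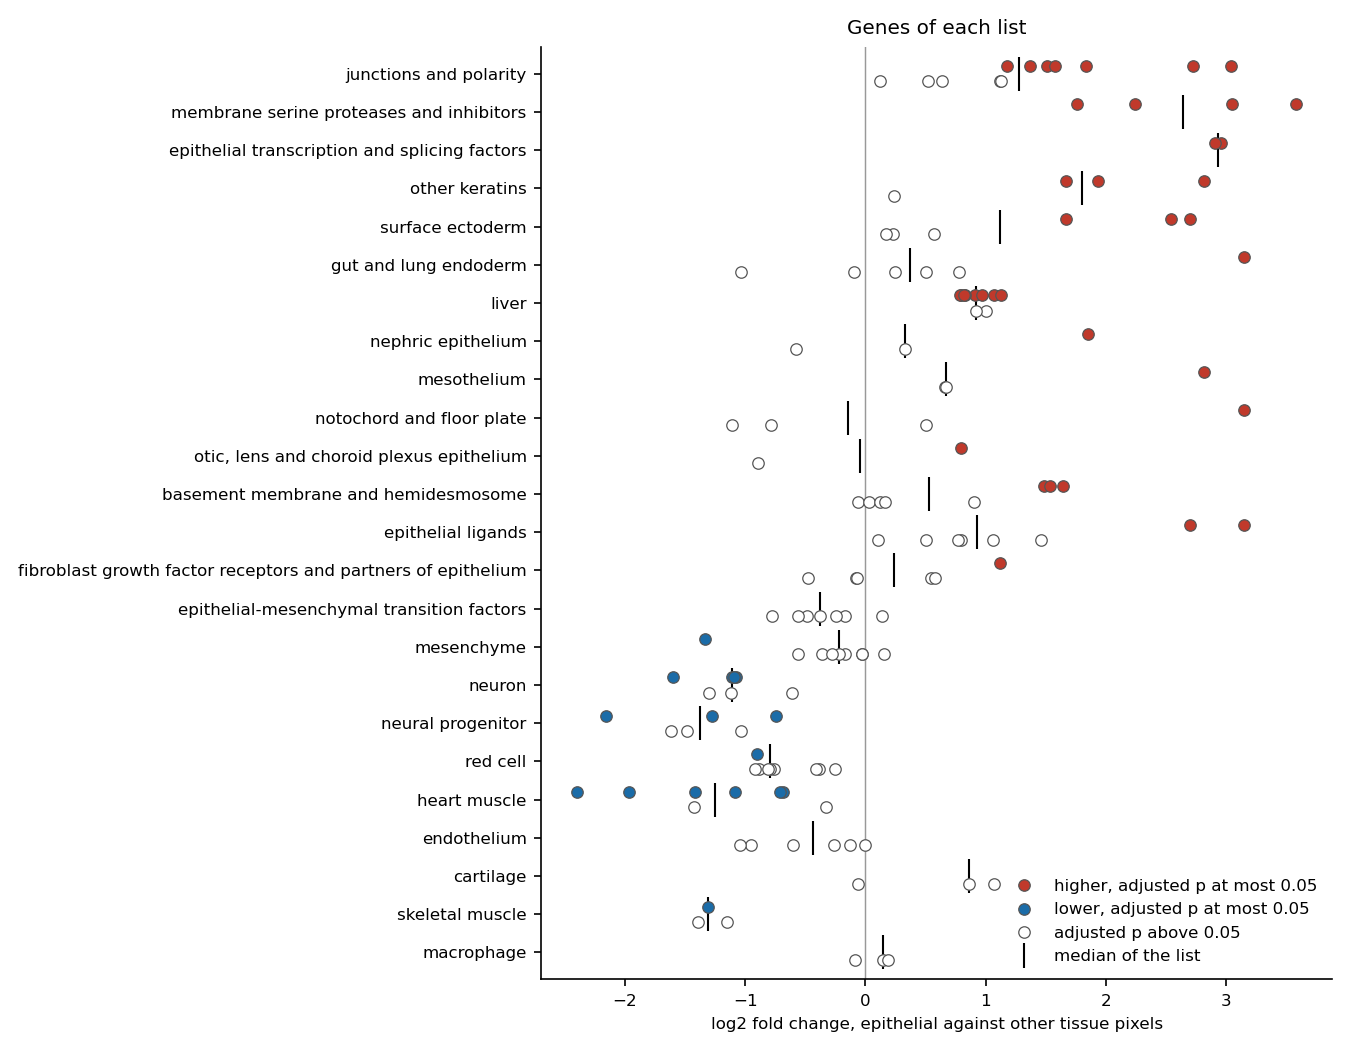
Log2 fold change of epithelial against other tissue pixels (horizontal axis) for the tested genes of each list, with filled points, set slightly higher, at an adjusted p of at most 0.05 and a bar at the median of the list. Junction, protease and liver genes lie above 0, and neuron, neural progenitor and heart muscle genes below it.

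Keratins and lineage genes differed between sections. Of 4 tested keratins outside the rule, Krt7, Krt14 and Krt19 were higher, and without E11 10 µm replicate 2 this was 2 of 4. Krt7, a simple epithelial keratin, had 36.3, 20.2, 9.94, 25.5 and 20.2 CPM against 5.77, 3.90, 1.27, 14.7 and 7.33 CPM (1.94 ± 0.38, adjusted p = 0.00256, edgeR). Krt14, a keratin of basal surface ectoderm, had 0, 12.1, 29.8, 6.37 and 66.8 CPM against 2.78, 0.835, 13.1, 3.48 and 18.3 CPM and was highest at E12 (1.66 ± 0.45, adjusted p = 0.0489, edgeR). Krt14 no longer passed when replicate 2 of either E11 width was left out, with DESeq2, in the top 5% of pixels or with at least 3 marker counts. Krt7 no longer passed without E11 25 µm replicate 1, and neither Krt7 nor Krt19 passed with pixels chosen by Epcam, Cdh1 and Cldn6 only. Of the surface ectoderm list, 3 of 6 tested genes were higher: Krt14, the ligand Wnt6 and Sfn (stratifin). Wnt6 had 23.4, 50.5, 34.8, 6.37 and 22.3 CPM against 4.27, 3.90, 5.06, 0.387 and 6.99 CPM and was higher in 5 of 5 libraries (2.69 ± 0.39, adjusted p = 5.22e-05, edgeR). Its 6.37 CPM in E11 10 µm replicate 2 was under the 19.1 CPM that 3 counts would be there. Trp63, the master factor of stratified epithelia, was too sparse for the test. It had 2.60, 20.2, 54.7, 0 and 36.4 CPM in epithelial pixels and 1.71, 0.557, 7.60, 0 and 3.66 CPM in the others.

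At E12 the epithelial pixels also held Krt5, the partner of Krt14, at 42.5 against 13.2 CPM and, in 5 pixels, the lung and thyroid factor Nkx2-1 (20.2 against 1.67 CPM). Krt5 had 0, 8.08, 0 and 0 CPM in the epithelial pixels of the E11 libraries. Wfdc2, a secreted protease inhibitor of ducts and airways, had 64.9, 54.5, 482, 31.9 and 168 CPM in epithelial pixels against 25.2, 18.7, 133, 20.5 and 23.6 CPM (1.85 ± 0.21, adjusted p = 3.88e-06, edgeR). It was highest in E11 10 µm replicate 1, where 40 of 119 epithelial pixels held it (33.6%, exact 95% interval 25.2 to 42.8%), and next at E12, with 29 of 87 pixels (33.3%, 23.6 to 44.3%). These intervals cover counting error only, and the shares in other tissue pixels were 10.3% and 7.46%. At E12, 27 of the 29 pixels with Wfdc2 also held Epcam, Cdh1 or Cldn6, as did 73.6% of all epithelial pixels there. Pax6, a factor of eye, nasal and neural tissue, was in 39 of the 119 epithelial pixels of E11 10 µm replicate 1 (32.8%, against 19.1% of other pixels) and in 6, 3, 0 and 0 of the other 4 libraries.

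**Figure D4:**
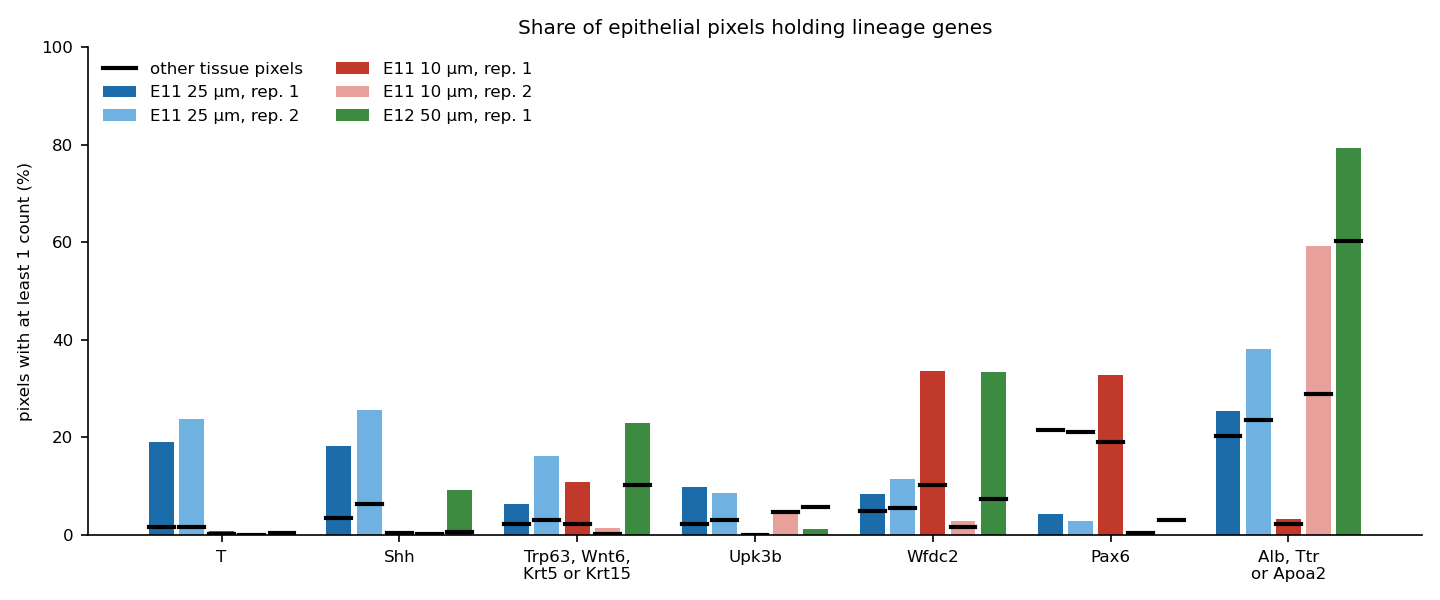
Share of epithelial pixels with at least 1 count of the named genes (bars, %) in each of the 5 libraries, with the share of other tissue pixels as a black line. T and Shh are most frequent in the E11 25 µm sections, Wfdc2 in E11 10 µm replicate 1 and E12, Pax6 in E11 10 µm replicate 1, and liver genes in E11 10 µm replicate 2 and E12.

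The E11 25 µm sections held a set of keratin pixels with notochord genes. T was counted in 27 of 142 epithelial pixels of replicate 1 (19.0%, exact 95% interval 12.9 to 26.4%) and in 25 of 105 of replicate 2 (23.8%, 16.04 to 33.1%), against 1.60% and 1.72% of the other tissue pixels. It was in 1, 0 and 0 epithelial pixels of the other 3 libraries, and a count of 0 (3 pixels of the total) allows up to 4.23% in E11 10 µm replicate 2 and 3.45% at E12, for counting error only. These libraries differ from the E11 25 µm sections in pixel width, depth and region. The split by T was made after its values were seen, so its values are given without a test. In pixels with T, Shh stood at 563 and 739.7 CPM in the 2 replicates, against 61.5 and 22.9 CPM in epithelial pixels without T and 14.7 and 18.7 CPM in other tissue pixels. The collagen gene Col2a1, which the notochord sheath and cartilage make, stood at 5264 and 3348 CPM with T and at 952 and 229 CPM without. Car3 (carbonic anhydrase 3) stood at 2671 and 2715 CPM with T and at 505 and 79.0 CPM without. Krt19 followed the same order, with 537 and 175 CPM against 45.3 and 17.8 CPM.

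The pixels with T held few or no counts of the junction genes. Epcam, Cdh1 and Cldn6 had no count in the 27 pixels of replicate 1 and 1 count each in the 25 of replicate 2. In epithelial pixels without T, Epcam stood at 84.2 and 94.3 CPM, and in other tissue pixels at 5.13 and 3.90 CPM. Epcam, Cdh1 and Cldn6 belong to the rule, so pixels could be chosen because they held them. Their contrast between epithelial pixels with and without T is thus partly set by the choice of pixels and is a description. Grhl2 and Trp63 had no count in the pixels with T of either section, and Upk3b, a mesothelial uroplakin, had none as well. Esrp1 and Wnt6 had none in replicate 1 and 2 counts each in replicate 2 (19.5 CPM, against 30.6 and 58.6 CPM without T). Without T, Grhl2 stood at 19.4 and 17.8 CPM and Trp63 at 3.24 and 25.5 CPM. A single count in the pixels with T of replicate 2 is 9.73 CPM, so the zeros of Grhl2 and Trp63 lie near the floor. Of the pixels with T, 14 of 27 and 20 of 25 also held Shh. The largest touching group of pixels with T was 6 in each section, and 7 pixels in each touched no other. On the grid maps these pixels follow an arc along 1 side of both sections.

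**Figure D5:**
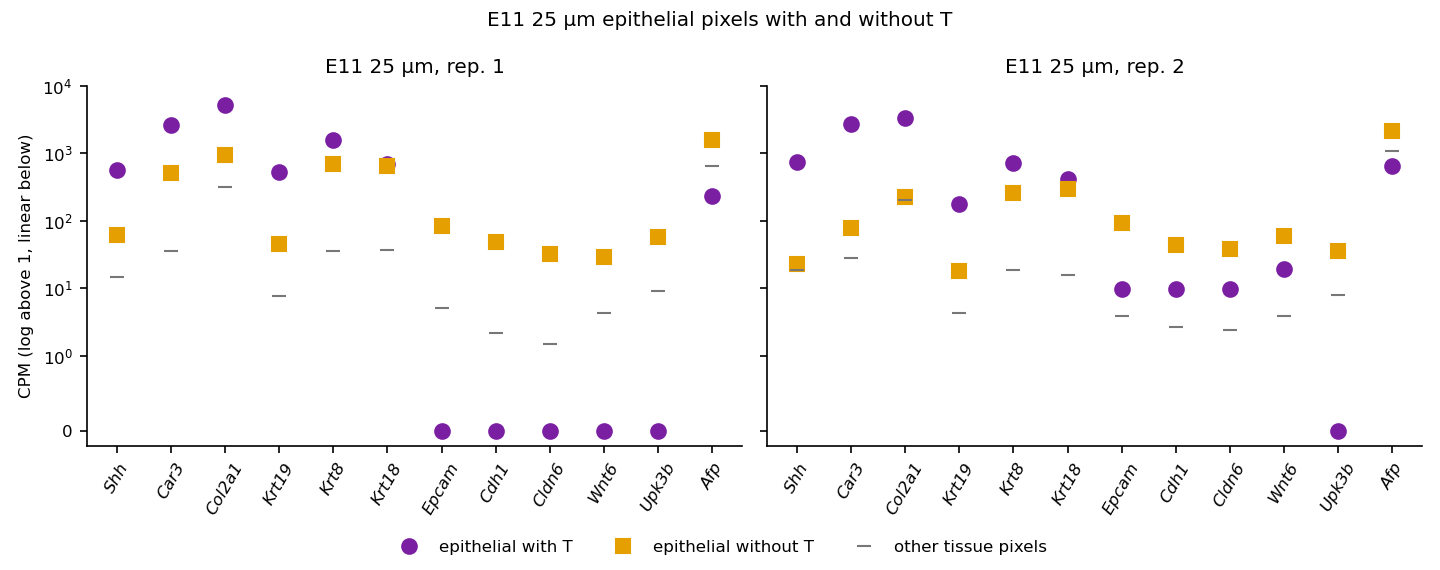
CPM (vertical axis, logarithmic above 1 and linear below) of 12 genes in the 2 E11 25 µm sections, summed over epithelial pixels with T (27 and 25 pixels), epithelial pixels without T (115 and 80) and other tissue pixels. Shh, Car3, Col2a1 and Krt19 are highest in pixels with T, and Epcam, Cdh1, Cldn6, Upk3b and Afp are higher in pixels without it. Epcam, Cdh1, Cldn6, Krt8 and Krt18 were used to choose the pixels.

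In the fit over the 5 libraries Shh was higher in epithelial pixels, in 4 of 5, with 161, 172, 4.97, 0 and 22.3 CPM against 14.7, 18.7, 2.95, 1.93 and 1.50 CPM (3.15 ± 0.32, adjusted p = 9.99e-08, edgeR). At E12 its 11 counts lay in 8 pixels, and all 8 held Epcam, Cdh1 or Cldn6, as did 73.6% of all epithelial pixels there. T had no count in the epithelial pixels at E12. Shh, which gut and airway epithelium also secrete, was the gene that passed in the gut and lung list (1 of 6 tested) and in the notochord and floor plate list (1 of 4), so both counts rest on it. With pixels chosen by Epcam, Cdh1 and Cldn6 only, Shh no longer passed. In the nephric (3 tested), mesothelium (3) and otic, lens and choroid plexus (2) lists 1 gene each passed, and these were Wfdc2, Krt19 and Ttr, all higher. Upk3b had 46.7, 28.3, 0, 19.1 and 2.02 CPM in epithelial pixels against 8.97, 8.07, 0, 42.2 and 18.3 CPM, higher at E11 25 µm and lower in E11 10 µm replicate 2 and at E12. It did not pass. Of 8 tested epithelial ligands, Wnt6 and Shh passed. Without E11 10 µm replicate 2, 4 of 8 did.

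Of 10 tested genes of the liver list, 8 were higher and none lower, with a median log2 fold change of 0.91. Afp (alpha-fetoprotein), made by fetal liver and yolk sac, had 1327, 1863, 54.7, 6721 and 2839 CPM in epithelial pixels and 652, 1073, 40.5, 2485 and 1913 CPM elsewhere. It was higher in 5 of 5 libraries (0.91 ± 0.13, adjusted p = 0.00927, edgeR), with the highest level in E11 10 µm replicate 2 and the lowest in E11 10 µm replicate 1, and it no longer passed without E11 25 µm replicate 1 or replicate 2. Apolipoprotein Apoa2 (0.83 ± 0.12), Apoa1 (1.07 ± 0.17) and the retinol carrier Rbp4 (0.82 ± 0.13) were also higher in 5 of 5, and Apob, Ttr, Trf and Fgb in 4 of 5. Alb (albumin) had a log2 fold change of 1.00 ± 0.25, positive in 5 of 5 libraries, and did not pass (adjusted p = 0.157, edgeR). Without E11 10 µm replicate 2, 9 of 10 were higher. With pixels chosen by Epcam, Cdh1 and Cldn6 only, which left 1 pixel in that library, none of these 8 passed, and Fgb had a log2 fold change of -0.60. None of the 8 passed in the top 5% of pixels either, where their log2 fold changes ran from 0.089 (Ttr) to 0.41 (Apob). With a tissue threshold of 0.2, Afp, Apoa1, Apoa2 and Ttr did not pass. Trf no longer passed with DESeq2 or without E11 25 µm replicate 1, E11 10 µm replicate 2 or E12, and Fgb without E11 25 µm replicate 2 or E12. After thinning, Ttr and Fgb did not pass. Counts of Afp also reached many pixels that were not chosen: 50.0%, 61.0%, 8.40%, 74.6% and 85.1% of epithelial pixels held it, and 37.6%, 52.2%, 5.93%, 48.3% and 67.4% of the others.

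Krt5 was counted in 0, 3, 0, 0 and 9 epithelial pixels, so a planned comparison of pixels with Krt5 and pixels with Afp could not be made. 8 of the 9 pixels with Krt5 at E12 held Afp too, as did 85.1% of all epithelial pixels there. After this was seen, epithelial pixels with and without Afp were compared instead (71 and 71, 64 and 41, 10 and 109, 53 and 18, and 74 and 13 pixels). Of 3346 genes tested, 9 were higher (0.269%) and 8 lower (0.239%) in pixels with Afp (edgeR), and none with no library block (37 at an unadjusted p under 0.05). Ambp, a plasma protein precursor from liver, had 320 and 5.78, 135 and 0, 56.8 and 0, 551 and 95.6, and 172 and 31.6 CPM in pixels with and without Afp, and it was higher in 5 of 5 libraries (4.30 ± 0.48, adjusted p = 5.21e-15, edgeR). Alb, Ttr, Rbp4, Trf and Apoe were higher in 4 of 5. Dlk1, a surface protein of hepatoblasts and other embryonic cells, was higher in 5 of 5 (0.94 ± 0.20, adjusted p = 0.00123, edgeR). The atrial myosin light chain Myl7 (-1.38 ± 0.25), tropomyosin Tpm1 (-0.70 ± 0.15) and the matrix proteoglycan Vcan (-0.70 ± 0.17) were lower in 5 of 5. Dlk1, Myl7, Tpm1 and Vcan no longer passed without E11 25 µm replicate 2 or with no filter on low counts, and Tpm1 and Vcan with DESeq2. Tpm1 was also lost without E11 10 µm replicate 2, and Vcan without E11 25 µm replicate 1 or E12. Pixels with Afp were deeper than those without in 4 of 5 libraries (medians of 2478 against 932.5 counts in E11 10 µm replicate 2), and the part of depth was not tested.

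A further comparison, also made after the values were seen, set epithelial pixels with Epcam, Cdh1 or Cldn6 against those with keratin counts only, in the 4 libraries with at least 10 pixels of each kind. E11 10 µm replicate 2, with 4 such pixels, did not enter. Of 3287 genes tested, none was higher (0%) and 7 were lower (0.213%), with 180 at an unadjusted p under 0.05 in either direction (edgeR; DESeq2 called 2 genes in all). With no library block none passed, with 23 at an unadjusted p under 0.05. Myl7 had 35.1 and 460.3 CPM (E11 25 µm replicate 1), 64.6 and 329.9 CPM (replicate 2), 13.8 and 35.8 CPM (E11 10 µm replicate 1) and 24.3 and 97.4 CPM (E12) in pixels with and without these genes, a log2 fold change of -2.49 ± 0.33 (adjusted p = 8.13e-05, edgeR). Keratin-only pixels thus held more Myl7 in each of the 4 libraries. The ventricular myosin Myh7 (-1.67 ± 0.32), the secreted plasma and matrix protein vitronectin Vtn (-1.84 ± 0.29) and Wwp2 (-1.40 ± 0.27) were lower in 4 of 4. The adult alpha globins Hba-a1 (-0.45 ± 0.08) and Hba-a2 (-0.42 ± 0.09), near-identical copies whose reads may be split uncertainly, were lower as well. Trf, the seventh, was lower in 3 of 4 and had no count in E11 10 µm replicate 1. Myh7, Wwp2, Hba-a1 and Hba-a2 did not pass with DESeq2. Vtn, Wwp2 and Hba-a2 no longer passed without E11 25 µm replicate 1, and Wwp2 without replicate 2.

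Genes of neurons and neural progenitors were among those that were lower in the summed epithelial pixels. Of 7 tested neuron genes, Stmn2, Dcx, Elavl3 and Map2 were lower (list median -1.11), and 5 of 7 without E11 10 µm replicate 2. Of 6 neural progenitor genes, Nes, Fabp7 and Hes5 were lower (list median -1.38). Per 10000 counts, the neuron list had pixel medians of 0.722, 0.867, 0, 0 and 2.86 in epithelial pixels. In the others these were 1.61, 2.53, 0, 0 and 2.46. The progenitor list had pixel medians of 3.39, 2.58, 4.12, 0 and 2.60 against 3.96, 4.37, 3.23, 0 and 2.51. By this median neuron genes at E12, and progenitor genes there and in E11 10 µm replicate 1, were thus higher in epithelial pixels. Hes5, a Notch target of neural progenitors, had 44.1, 14.1, 34.8, 0 and 2.02 CPM in epithelial pixels and 168, 123, 75.5, 2.32 and 8.49 CPM elsewhere (-2.16 ± 0.28, adjusted p = 6.56e-06, edgeR). The axon guidance gene Draxin had 7.79, 14.1, 4.97, 6.37 and 6.07 CPM against 78.6, 46.1, 13.9, 10.4 and 15.7 CPM (-2.07 ± 0.37, adjusted p = 0.00092, edgeR). In E11 10 µm replicate 2 both levels of Hes5 and Draxin lay under the 19.1 CPM of 3 counts in epithelial pixels. In replicate 1 both levels of Draxin lay under the 14.9 CPM of 3 counts. The neural tube factor Rfx4 (-2.27 ± 0.44), the glutamate transporter Slc1a2 (-2.30 ± 0.44), the neurotrophin receptor Ntrk2 (-2.24 ± 0.50), the secretogranin Scg3 (-2.10 ± 0.49), the proteoglycan Cspg5 (-2.10 ± 0.54) and Soga3 (-1.99 ± 0.35) were also lower in 5 of 5 libraries. These genes had 12, 9, 8, 8, 6 and 17 counts in all epithelial pixels. The largest change in this direction was in Shox2, a homeobox factor of limb, palate and sinus node (-2.58 ± 0.51, adjusted p = 0.00256, edgeR), with 8 counts left in all epithelial pixels. Elavl3, Nes, Hes5, Slc1a2 and Soga3 passed under every alternative that could test them, other than the fit with no library block. Draxin, Map2 and Scg3 no longer passed without E11 25 µm replicate 1, Stmn2, Dcx, Map2, Fabp7, Rfx4, Ntrk2 and Cspg5 without E11 25 µm replicate 2, and Stmn2, Dcx, Ntrk2, Scg3, Cspg5 and Shox2 without E12. After thinning, Stmn2, Dcx, Map2, Fabp7 and Draxin did not pass, and with DESeq2 Map2, Rfx4, Scg3 and Cspg5 did not. Dcx, Draxin, Map2 and Cspg5 did not pass with pixels chosen by Epcam, Cdh1 and Cldn6 only. Map2 and Cspg5 did not pass in the top 5% of pixels either. Sox2 and Pax6 of the progenitor list were not called (adjusted p = 0.801 and 0.863, edgeR).

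Genes of heart muscle were also among those that were lower in the summed epithelial pixels. Of 8 heart muscle genes, Myh6, Myh7, Tnnt2, Actc1, Nppa and Tnni1 were lower (list median -1.25). Per 10000 counts, the list had pixel medians of 5.07, 5.91, 0, 7.79 and 2.62 in epithelial pixels. In the others these were 4.57, 4.23, 0, 10.2 and 3.69, so at E11 25 µm the pixel median was higher in epithelial pixels. The atrial myosin Myh6 had 104, 109, 0, 185 and 18.2 CPM in epithelial pixels against 338, 235, 7.18, 1023 and 176 CPM (-1.97 ± 0.28, adjusted p = 0.0111, edgeR). In E11 10 µm replicate 1 both levels lay under the 14.9 CPM of 3 counts in epithelial pixels. Pgam2 (-1.92 ± 0.40) and Cox6a2 (-2.21 ± 0.53), muscle forms of metabolic enzymes, and the skeletal actin Acta1 (-1.31 ± 0.27) were each lower in 5 of 5 libraries, and Acta1 was the 1 of 3 skeletal muscle genes that passed (2 of 4 without E11 10 µm replicate 2). Tnnt2, Actc1 and Nppa passed under every alternative that could test them, other than the fit with no library block. Myh6 no longer passed without E11 25 µm replicate 1 or E11 10 µm replicate 1, Myh7 without E11 25 µm replicate 2, Tnni1 and Cox6a2 without E11 25 µm replicate 1, replicate 2 or E12, and Pgam2 and Acta1 without E12. Myh7, Tnni1 and Cox6a2 did not pass with DESeq2. Myh6, Myh7 and Cox6a2 did not pass in the top 5% of pixels, nor Cox6a2 with pixels chosen by Epcam, Cdh1 and Cldn6 only. Acta1 did not pass after thinning, nor Myh6 when other tissue pixels touching epithelial ones were left out. The embryonic alpha-like globin Hba-x had 1402, 1622, 1411, 2548 and 1459 CPM against 2799, 2386, 3546, 4233 and 2631 CPM and was the 1 gene of 9 red cell genes that passed (-0.91 ± 0.09, adjusted p = 0.000237, edgeR). All 9 had a negative log2 fold change in the sums. Per 10000 counts, the red cell list had pixel medians of 64.5, 42.5, 56.3, 89.6 and 440 in epithelial pixels. In the others these were 64.1, 42.4, 114, 112 and 601, so at E11 25 µm the pixel medians were nearly equal. DESeq2 called 5 of the 9, and after thinning Hba-x did not pass. Of 9 mesenchyme genes only the limb and face factor Prrx1 was lower, with 13.0, 70.7, 79.5, 38.2 and 76.9 CPM against 63.4, 118, 182, 41.4 and 282 CPM (-1.34 ± 0.20, adjusted p = 0.000179, edgeR). Prrx1 no longer passed with pixels chosen by Epcam, Cdh1 and Cldn6 only. Of 6 endothelial, 3 cartilage and 3 macrophage genes none passed (edgeR or DESeq2), with 3, 0 and 0 at an unadjusted p under 0.05.

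The epithelial difference itself was compared between pixel widths at E11 and between stages. Between E11 25 µm and E11 10 µm it differed in 61 of 11033 genes (0.553%), higher at 25 µm in 49 (0.444%) and lower in 12 (0.109%; edgeR, 2 residual degrees of freedom). Car3 had 935 and 626 CPM in the epithelial pixels at 25 µm against 35.2 and 28.5 CPM in other pixels, and 4.97 and 0 CPM against 1.27 and 4.25 CPM at 10 µm (adjusted p = 0.0284, edgeR). The collagens Col2a1, Col9a1 and Col11a1 were also among the 49 and are named here after their values were seen. Car3 and Col2a1 stood highest in the pixels with T of these sections, and the part of those pixels in the difference was not tested. Car3 no longer passed with DESeq2, or when E11 25 µm replicate 1 or E11 10 µm replicate 2 was left out. Pax6 had 15.6 and 6.06 CPM against 259 and 136 CPM at 25 µm, and 313 and 0 CPM against 181 and 2.71 CPM at 10 µm, so the lower difference at 25 µm (adjusted p = 1.57e-09, edgeR) rests on E11 10 µm replicate 1. Without that library the log2 difference was 1.74 in the other direction. Without E11 10 µm replicate 2 the count of genes was 145.

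Between E12 and the mean of both E11 widths, 1 gene was higher (0.00906%) and 7 were lower (0.0634%) in 11033, or 0.0725% in either direction (edgeR). Wnt7b, a ligand of lung and ureteric epithelium, had 83.0 CPM in E12 epithelial pixels against 19.6 CPM in others. At E11 it had 104, 72.7, 29.8 and 0 CPM against 107, 52.1, 64.2 and 0.774 CPM (log2 difference 2.53 ± 0.47, adjusted p = 0.00679, edgeR), and it no longer passed with DESeq2, in the top 5% of pixels, or when replicate 1 of either E11 width was left out. Col2a1 had 198 against 613 CPM at E12 and 1807 against 314, 877 against 204, 403 against 353 and 63.7 against 75.8 CPM at E11 (-2.84 ± 0.21, adjusted p = 9.30e-13, edgeR). The difference thus had the opposite sign at E12 and at E11 25 µm, and was small at E11 10 µm. E12 was 1 library, assumed to vary like the others. Without E11 10 µm replicate 1 the count was 24 genes, and without replicate 2 it was 48.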

How the data were processed

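Transcripts were counted per pixel in sections of mouse embryos. Per the labels' protocols, embryos were frozen in embedding medium, cut below 7 µm, and sequenced as Nextera XT libraries on a HiSeq instrument. Per the submitters' processing notes, CASAVA 1.8.2 was used. The notes name a human build for these mouse symbols, so the build behind the counts is taken as unknown, and the aligner and use of strand are not given in the sources used here. The authors deposited raw counts per gene symbol and pixel, with no normalization. The antibody libraries and the E10 libraries were not used, other than to count the pixels of the series.

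A pixel was tissue when its total reached 0.1 times the 95th percentile of its library's totals. Counts were summed over epithelial and over other tissue pixels in each of the 5 libraries. The summed epithelial pixels held 156972 to 494980 counts and the other pixels 2369301 to 7182958. Sums were tested with edgeR 4.0.16 (R 4.3.3; limma 3.58.1; TMM factors, default filter on low counts, robust quasi-likelihood fit, two-sided), with the library as a block, because both sums of a library come from the same section. P-values were adjusted by Benjamini-Hochberg over all genes tested. CPM are counts per 1000000 counts of the summed pixels, and log2 fold changes are from the fit. DESeq2 1.42.0 was an alternative, as were other filters, thresholds, marker sets, thinning to 1000 counts and leaving out each library. The fit was checked on simulated counts. Exact intervals are Clopper-Pearson at 95%, and a count of 0 allows up to 3 counts.

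The members, lists and comparisons were chosen with earlier results of these data known. Genes named are the 12 with the largest log2 fold change each way among called genes with the same sign in 5 libraries and at least 50 counts (3 each way for differences between groups, 6 for splits), the rule genes, and members of the lists. The lists are those in the plot of log2 fold changes by list.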

Additional observations from a re-analysis of the deposited data

Results flagged for a closer look

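The epithelial difference differed between E11 25 µm and E11 10 µm, by the interaction term of the edgeR fit, in 6 named genes. Igf1 had an adjusted p of 0.00663 and Zfp523 of 0.0386. Igf1, a growth factor of mesenchyme, stood at 36.3 and 80.8 CPM in epithelial pixels at 25 µm and had no count in those at 10 µm, where other pixels held 35.5 and 29.0 CPM. Zfp523 stood at 46.7 and 32.3 CPM at 25 µm and also had no count at 10 µm, where other pixels held 30.8 and 20.1 CPM. In the summed epithelial pixels at 10 µm, 3 counts are 14.9 and 19.1 CPM, so no fold is given for either. Car3 had an adjusted p of 0.0284. Pax6 (1.57e-09) and Msx1 (0.00338) had the lower difference at 25 µm. Msx1, a homeobox factor of ectoderm and mesenchyme, had 338 against 135 CPM in E11 10 µm replicate 1 and no count in the epithelial pixels of replicate 2. Without replicate 1 the log2 difference of Msx1 was 6.44 and that of Pax6 was 1.74, both in the other direction. Iqgap2, a scaffold protein that is high in liver, also had the lower difference at 25 µm (log2 difference -1.79 ± 0.45, adjusted p of 0.0478). It had 28.6 and 28.3 CPM in epithelial pixels at 25 µm and 109 and 102 CPM in those at 10 µm. The test compares the differences from other tissue pixels, not these levels. Igf1 and Zfp523 no longer passed without E11 10 µm replicate 1, Iqgap2 without any 1 of the other 3 E11 libraries, Msx1 and Zfp523 without E11 25 µm replicate 1, and Zfp523 without E11 25 µm replicate 2. With DESeq2, Car3, Igf1, Iqgap2 and Msx1 did not pass, and in the top 5% of pixels Igf1, Iqgap2, Msx1 and Zfp523 did not.

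Between E12 and E11 the epithelial difference differed in Wnt7b (adjusted p = 0.00679, edgeR), Col9a1 (0.00591), Col11a1 (7.74e-10) and Col2a1 (9.30e-13). Col9a1 had 18.2 CPM in epithelial against 96.7 CPM in other pixels at E12, and 156 and 178 CPM against 23.1 and 29.8 CPM at E11 25 µm. Col11a1 had 134 against 297 CPM at E12, and 669.8 and 511 CPM against 66.4 and 66.7 CPM at E11 25 µm. Col9a1 and Wnt7b did not pass with DESeq2.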

How the results depend on the processing

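The counts of genes higher and lower in epithelial pixels (78 and 97) were 84 and 92 with DESeq2 size factors, 66 and 52 with DESeq2, 140 and 192 with no filter on low counts, 24 and 30 after thinning to 1000 counts (with fewer genes tested), and 41 to 100 and 40 to 108 when each library was left out. Without E11 25 µm replicate 2 they were 41 and 40, and without replicate 1 they were 53 and 60. With no replicate block they were 1 and 0, with 241 genes at an unadjusted p under 0.05, and the left-out rule genes kept log2 fold changes of 2.28 (Epcam), 2.12 (Cdh1), 2.37 (Krt8), 2.14 (Krt18) and 2.37 (Cldn6) but did not pass. Cldn6 could not be tested without E11 10 µm replicate 1. The 61 genes of the width comparison were 9 with DESeq2 and 29 to 145 when a library was left out (29 and 37 without E11 25 µm replicates 1 and 2). The 8 genes of the stage comparison were 2 with DESeq2, 14 with a tissue threshold of 0.2 and 6 to 48 when a library was left out. The 17 genes of the Afp split were 7 with DESeq2, 0 with no replicate block (37 at an unadjusted p under 0.05), 56 with at least 2 Afp counts and 8 to 38 when a library was left out (8, 38 and 9 without E11 25 µm replicate 2, E11 10 µm replicate 1 and E12). The 7 genes of the junction split were 37 with no filter, 2 with DESeq2, 0 with no replicate block (23 at an unadjusted p under 0.05) and 3 to 48 when a library was left out (3, 17 and 48 without E11 25 µm replicate 1, E11 10 µm replicate 1 and E12). Of the named genes that differed between epithelial and other pixels, 15 no longer passed without E11 25 µm replicate 1, 23 without replicate 2, 4 and 2 without E11 10 µm replicates 1 and 2, and 15 without E12. Afp, Krt14 and Trf were among those lost. The difference in neighbours was 17.0 to 22.2 points when a library was left out. Single genes were followed over the settings if they were named and called, or were Alb, Dsp, Vim, Zeb1 or Zeb2. Other list genes that did not pass, such as Col4a1 and Upk3b, were not followed. Among those followed, directions turned in 4 cases: Pax6 (1.74, in a range of -5.16 to 1.74 over the libraries left out) and Msx1 (6.44, in a range of -2.19 to 6.44) between widths without E11 10 µm replicate 1, Fgb (-0.60) with pixels chosen by Epcam, Cdh1 and Cldn6 only, and Etv5 (-0.076) after thinning. Over the genes followed and their settings, 876 kept their direction and side of the threshold, 246 kept the direction but no longer passed and 18 newly passed. The cause was not tested where no reason is given. Depth limits the genes with few counts: 3 counts are 6.06 to 19.1 CPM in the summed epithelial pixels.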
